A study of Danio rerio with 9 samples.

Results

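Transcripts of the intestinal epithelium were followed through RNA-seq libraries of zebrafish liver. The members were 35 gene symbols listed for the lining of the gut, with earlier results of these data known. Whether each is particular to the gut was not tested. A gene of the deposited table was a member when its symbol, with case ignored, was on that list. By this rule 25 symbols were found, on 27 of the 33716 gene IDs. Mep1b and lct each stood on 2 gene IDs. The other 10 symbols (anpepa, anpepb, slc15a1b, rbp2a, slc6a19a.1, slc6a19b, muc2.1, pyyb, myo1a and slc26a3.2) were not matched, and they are not analysed here as members. The 9 libraries fell into 3 groups of 3. The first group came from maternal-zygotic focad null fish, whose age is not given in the labels used here. The second came from maternal-zygotic pdia6 null fish of 3.5 months, and the third from wild-type fish of the AB line of 3.5 months. A maternal-zygotic null lacks the product of the gene from the egg onward. AB appears in the titles of wild type alone, and fish line and genotype cannot be told apart. Nothing in the labels ties a library to its own fish. The p-values therefore speak of library-to-library spread, part of which may be technical.

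The absorptive cell of the gut, the enterocyte, carries a brush border of microvilli held up by actin-bundling proteins such as villin. Peptidases and sugar-cleaving enzymes on the brush border finish digestion, transporters take up glucose, amino acids and peptides, and small binding proteins in the cytosol carry fatty acids, retinol and bile acids. Goblet cells between the enterocytes secrete mucus, and enteroendocrine cells release hormones. In zebrafish the liver lies against the anterior gut, and pancreatic tissue lies along the same stretch.

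Each library held between 46.1 and 54.5 M reads. Levels are given as FPKM, reads scaled by transcript length and library size, which allows genes to be compared per length. The columns were rescaled so that the median gene was level between libraries, and every FPKM below is a rescaled one. All 23 gene IDs of the hepatocyte list were read in each group, with a summed level of 157200 to 167900 FPKM in the focad null group, 177500 to 195300 in the pdia6 null group and 185100 to 210700 in wild type. In 2 libraries the targeted transcript was not set apart from wild type, and the genotype behind the label was not tested. Focad stood at 0.28, 0.53 and 0.24 FPKM in focad null replicates 1 to 3, against 1.135, 0.52 and 1.03 FPKM in wild-type replicates 1 to 3, so the library labelled focad null replicate 2 lay inside the wild-type range. Pdia6 measured 44.3, 0.90 and 0.91 FPKM in replicates 1 to 3 of pdia6 null, against 265, 14.2 and 56.4 FPKM in wild type, so the library labelled pdia6 null replicate 1 did too. Groups keep the names of the labels, and the calls are also given without both of these.

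**Figure D1:**
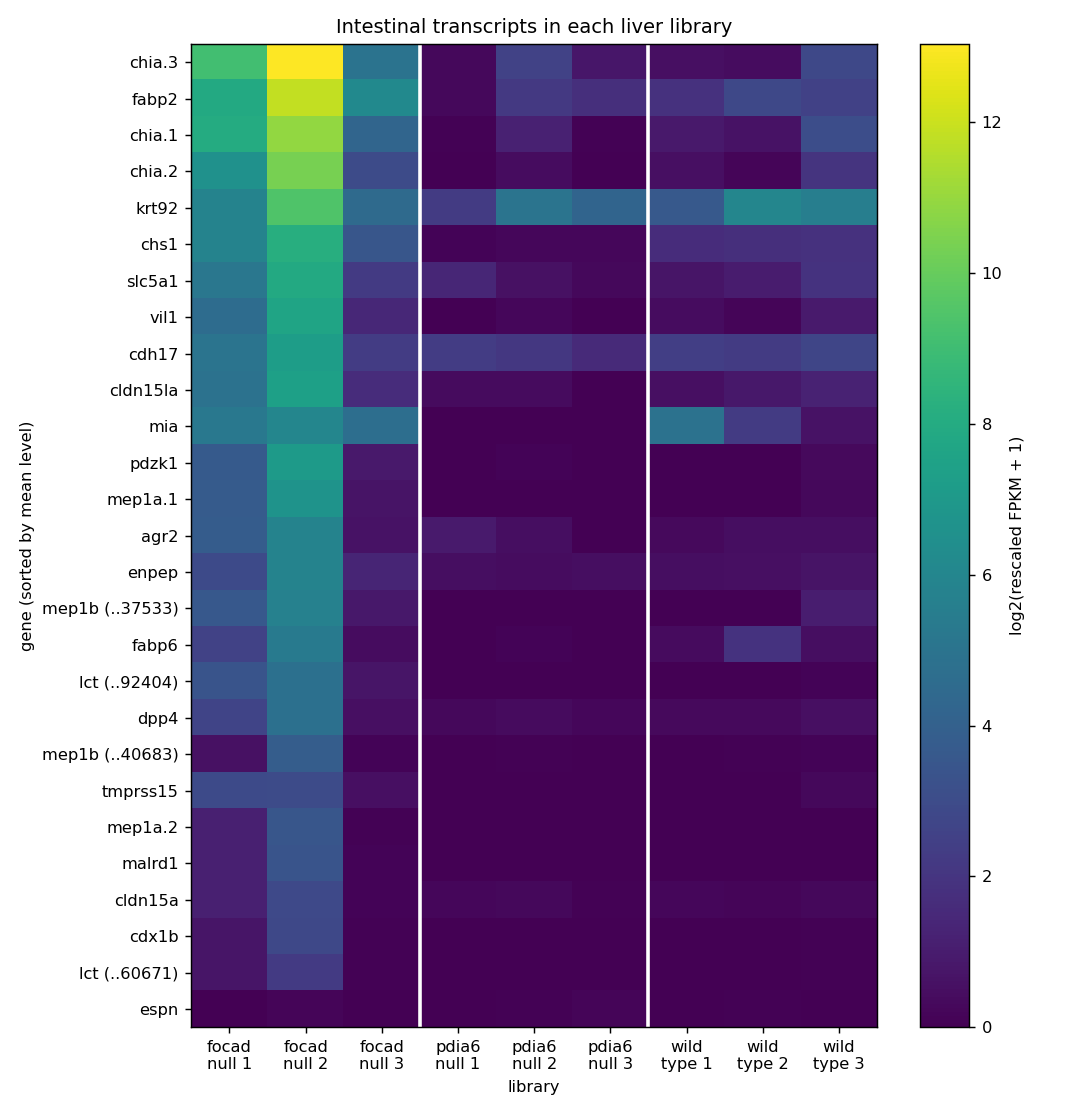
Levels of the 27 intestinal gene IDs (rows, sorted by mean) in the 9 liver libraries (columns), as log2(rescaled FPKM + 1) on the colour scale; white lines part the groups, and symbols on 2 gene IDs carry the last digits of the ID. The library labelled focad null replicate 2 is the highest for 26 of 27 gene IDs, and focad null replicate 1 stands between it and the rest.

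Intestinal transcripts were most abundant in the focad null group and differed widely within it. The members summed to 1496, 17670 and 202.5 FPKM in replicates 1 to 3 of focad null. They summed to 12.04, 47.5 and 23.8 FPKM in the pdia6 null libraries, and to 54.7, 84.6 and 85.5 FPKM in wild type. The focad null libraries did not overlap with either other group in this sum, and the highest of them stood far above its own group. As a share of all FPKM, the members took 0.20%, 1.85% and 0.029% in the focad null libraries, 0.00167%, 0.00605% and 0.00305% in the pdia6 null libraries, and 0.00734%, 0.00943% and 0.0108% in wild type. At 1 FPKM or more stood 23, 26 and 12 of the 27 gene IDs in the focad null libraries, 3, 5 and 3 in the pdia6 null libraries, and 5, 6 and 10 in wild type. In bulk RNA, fewer cells of a type and less RNA per cell cannot be told apart.

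Each library was next set against the 6 libraries of the other groups. The library labelled focad null replicate 2 stood above all 6 for 26 of 27 gene IDs, focad null replicate 1 for 25 and focad null replicate 3 for 17. Of the 25 members that averaged 0.5 FPKM or more and were tested, 25, 24 and 16 held such a position (replicates 2, 1 and 3). Among all 13290 genes tested, it was held by 28.0%, 18.2% and 14.5% for these libraries. Of the 25, 14 had a mean below 0.5 FPKM over the 6 pdia6 null and wild-type libraries, so their focad null levels brought them over the filter. For these 14 the filter itself favoured this position. None of the pdia6 null and wild-type libraries reached it for more than 1 member, and that 1 was espn in pdia6 null replicate 3. Espn was under the filter, so each of these libraries held the position for 0 of the 25 tested. Among all genes tested, 17.4%, 15.1% and 15.2% held it for the pdia6 null libraries, and 12.9%, 14.8% and 14.9% for wild type.

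Chitin-digesting enzymes made up the largest share of the members in focad null replicate 1 and in the library labelled focad null replicate 2, but not elsewhere. Chia.1, chia.2 and chia.3 encode acidic chitinases. Chia.3 stood at 545.5, 8403 and 30.4 FPKM in replicates 1 to 3 of focad null, against 0.20, 4.88 and 0.74 FPKM in those of pdia6 null and 0.45, 0.35 and 6.20 FPKM in wild type. Chia.1 stood at 263, 1964 and 18.4 FPKM in the focad null libraries, against 0.07, 1.31 and 0.04 in the pdia6 null libraries and 0.87, 0.54 and 7.36 in wild type. For these genes the lowest focad null library exceeded the highest library of both other groups. Chia.2 showed the same separation, at 96.9, 1297 and 6.92 FPKM in the focad null libraries, between 0.016 and 0.34 in the pdia6 null libraries and between 0.12 and 2.95 in wild type. The chia genes lie close together in the RefSeq annotation (assembly GRCz12tu), chia.1 and chia.2 as direct neighbours. Whether these related genes share reads was not tested. Together they made up 60.5%, 66.0% and 27.5% of the members' summed FPKM in the focad null libraries, but 2.41%, 13.8% and 3.45% in the pdia6 null libraries and 3.25%, 1.19% and 19.3% in wild type.

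Chs1 encodes a chitin synthase. Its level was 55.7, 289.8 and 10.3 FPKM in the focad null libraries, against 0.099, 0.18 and 0.16 FPKM in the pdia6 null libraries and 2.17, 2.39 and 2.64 FPKM in wild type. The 3 groups did not overlap with each other. Behind these levels stood 35 reads in all for the pdia6 null group and 504 for wild type.

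Among lipid-binding proteins, fabp2, the enterocyte carrier of fatty acids, had the highest level of all members in focad null replicate 3. It stood at 237, 3640 and 71.1 FPKM in the focad null libraries, against 0.22, 3.45 and 2.34 FPKM in the pdia6 null libraries and 2.60, 6.05 and 4.72 FPKM in wild type. The focad null libraries were all higher, and the other groups overlapped. Fabp6, the bile acid carrier of the ileum in mammals, stood at 4.94, 39.6 and 0.33 FPKM in the focad null libraries, against 0, 0.11 and 0 FPKM in the pdia6 null libraries and 0.29, 2.77 and 0.42 FPKM in wild type. Focad null replicate 3 thus lay within the wild-type range for fabp6. Fabp2 took 15.9%, 20.6% and 35.1% of the members' sum in the focad null libraries, a larger share in replicate 3 than in the others.

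The brush-border enzymes were low outside the focad null group. Meprins are metalloproteases of the brush border, with subunits encoded by mep1a and mep1b. Mep1a.1 had 940, 5620 and 43 reads in the focad null libraries, 0, 0 and 1 in the pdia6 null libraries and 0, 0 and 13 in wild type. Its neighbour in the RefSeq annotation, mep1a.2, had 182, 1102 and 8 reads in the focad null libraries, no read in the pdia6 null libraries and 5 in wild type. Taking 3 reads over a group as the floor, mep1a.2 was at least 429-fold higher in the focad null than in the pdia6 null group, and at least 91.2-fold without the library labelled focad null replicate 2. Bounds without a library were computed after seeing the data. The mep1b gene ENSDARG00000037533 stood at 11.1, 51.8 and 0.78 FPKM in the focad null libraries, against at most 0.024 FPKM in the pdia6 null libraries and 0.018, 0.011 and 1.06 FPKM in wild type, so that wild-type replicate 3 exceeded focad null replicate 3. The other mep1b gene, ENSDARG00000040683, stood at 0.49, 13.5 and 0.083 FPKM in the focad null libraries and stayed under 0.1 FPKM in every library of the other groups. For this gene too wild-type replicate 3, at 0.095 FPKM, exceeded focad null replicate 3.

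Lct encodes lactase, a glycosidase that splits milk sugar in mammals. The lct gene ENSDARG00000092404 had 3512, 7205 and 236 reads in the focad null libraries, none in the pdia6 null libraries and 7, 1 and 30 in wild type, which placed the focad null group at least 3636-fold above the pdia6 null group, or 1799-fold without the library labelled focad null replicate 2. The second lct gene, ENSDARG00000060671, had 1200 reads in the focad null group, none in the pdia6 null group and 12 in wild type, the 12 all in replicate 3. Tmprss15, enteropeptidase, which activates trypsinogen, had another balance between the focad null libraries. It stood at 6.55, 6.96 and 0.44 FPKM there, level between replicates 1 and 2, against at most 0.0057 FPKM in the pdia6 null libraries and 0.0059, 0 and 0.21 FPKM in wild type. Dpp4 and enpep, peptidases also found outside the gut, had a background in all libraries. Dpp4 stood at 5.44, 27.2 and 0.43 FPKM in the focad null libraries, 0.17 to 0.30 in the pdia6 null libraries and 0.24 to 0.47 in wild type. Enpep stood at 6.71, 55.3 and 1.54 FPKM in the focad null libraries, 0.37 to 0.42 in the pdia6 null libraries and 0.40 to 0.61 in wild type, with no overlap between focad null and either other group.

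Structure and uptake followed a like order. Vil1, villin, stood at 23.4, 192 and 1.74 FPKM in the focad null libraries, against 0.013, 0.18 and 0.0069 FPKM in the pdia6 null libraries and 0.34, 0.14 and 0.94 FPKM in wild type. Slc5a1, the sodium-glucose transporter, stood at 34.6, 240 and 3.72 FPKM in the focad null libraries, against 1.68, 0.48 and 0.23 FPKM in the pdia6 null libraries and 0.64, 0.96 and 2.74 FPKM in wild type. Neither gene overlapped between the focad null group and the others. Pdzk1, a scaffold that holds transporters at the apical membrane, stood at 12.1, 137 and 0.88 FPKM in the focad null libraries and at most 0.249 FPKM in each of the other 6. Malrd1, which in mice influences bile acid levels, stood at 1.22, 9.50 and 0.083 FPKM in the focad null libraries and at most 0.0202 FPKM in the others. Espn, espin, an actin-bundling protein, went another way. It had 2, 13 and 4 reads in the focad null libraries, 4, 7 and 19 in the pdia6 null libraries and 0, 6 and 4 in wild type, and so hardly any signal in these livers.

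Junction and adhesion genes were split. Cldn15la, a claudin of tight junctions, stood at 29.2, 169 and 2.15 FPKM in the focad null libraries, against 0.31, 0.30 and 0 FPKM in the pdia6 null libraries and 0.46, 0.77 and 1.37 FPKM in wild type. Cldn15a, a related claudin, stood at 1.24, 6.35 and 0.093 FPKM in the focad null libraries, 0.041 to 0.23 in the pdia6 null libraries and 0.12 to 0.22 in wild type, so focad null replicate 3 fell below all 3 wild-type libraries. Cdh17, a cadherin of intestine and liver in mammals, stood at 31.9, 153 and 3.97 FPKM in the focad null libraries, against 3.91, 3.33 and 1.91 FPKM in the pdia6 null libraries and 4.28, 3.78 and 5.503 FPKM in wild type. It was thus present at a few FPKM in every library, and focad null replicate 3 lay among the wild-type values. Krt92, a keratin, stood at 55.5, 706.5 and 21.7 FPKM in the focad null libraries, against 3.73, 31.4 and 17.5 FPKM in the pdia6 null libraries and 11.54, 61.5 and 46.3 FPKM in wild type. Wild-type replicate 2 exceeded focad null replicates 1 and 3 for krt92.

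Agr2, a disulfide isomerase of the endoplasmic reticulum needed for mucus in goblet cells, stood at 12.8, 56.5 and 0.57 FPKM in the focad null libraries, against 0.90, 0.39 and 0.025 FPKM in the pdia6 null libraries and 0.28, 0.40 and 0.42 FPKM in wild type. The library labelled pdia6 null replicate 1 exceeded focad null replicate 3. Cdx1b, a homeobox transcription factor of the gut, stood at 0.70, 6.20 and 0.073 FPKM in the focad null libraries, against at most 0.0038 FPKM in the pdia6 null libraries and 0.020, 0.028 and 0.040 FPKM in wild type. Its 3 groups did not overlap, although the pdia6 null group rested on 2 reads and wild type on 21. Mia, named for melanoma inhibitory activity and encoding a small secreted protein, differed from the other members in wild type. It stood at 36.2, 62.3 and 25.4 FPKM in the focad null libraries, against no read in any pdia6 null library and 29.3, 3.82 and 0.57 FPKM in wild-type replicates 1 to 3. Wild-type replicate 1 was above focad null replicate 3 and below the other focad null libraries, and wild-type replicates 2 and 3 were lower than all 3.

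**Figure D2:**
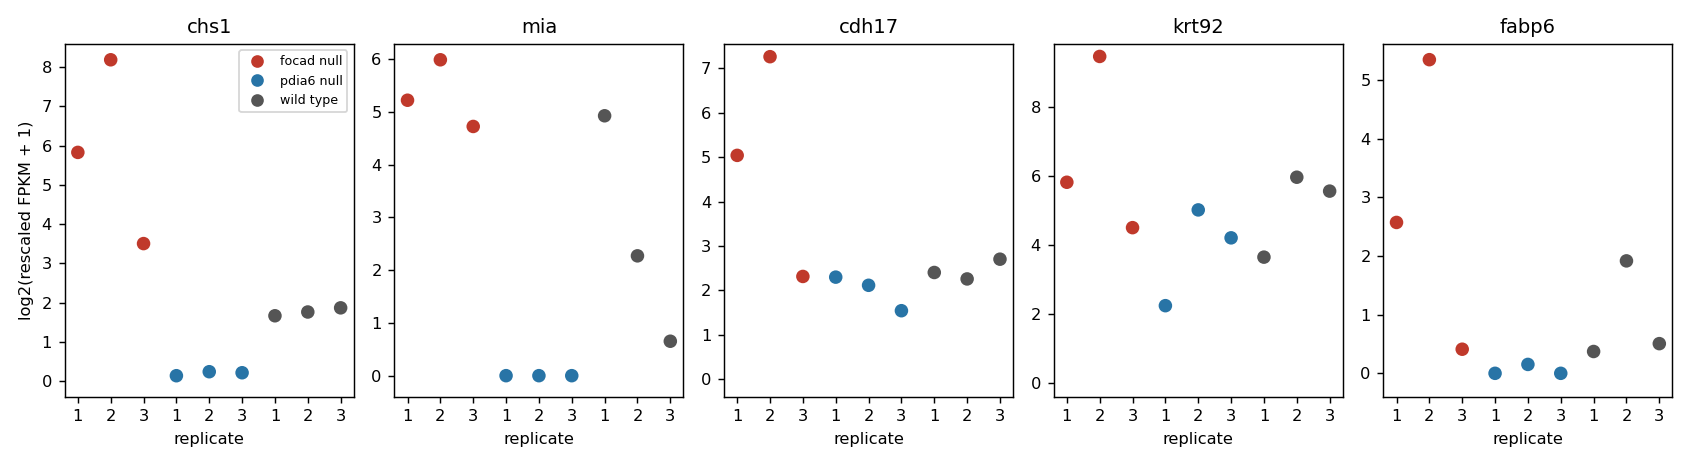
Levels of chs1, mia, cdh17, krt92 and fabp6 as log2(rescaled FPKM + 1) in each library, with replicates 1 to 3 of focad null, pdia6 null and wild type from left to right. Chs1 parts all 3 groups, mia has no read in the pdia6 null libraries, and for cdh17, krt92 and fabp6 focad null replicate 3 lies within the wild-type values.

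The focad null libraries ranked alike across members. The order replicate 2, replicate 1, replicate 3, from high to low, held for 26 of 27 gene IDs, all but espn. The share of all genes with this order was not taken. Between the library labelled focad null replicate 2 and replicate 1 the median ratio was 7.81-fold, with quartiles of 5.06 and 8.98, and 24 of 27 ratios lay between 2- and 16-fold. The extremes were tmprss15 at 1.06-fold and the mep1b gene ENSDARG00000040683 at 27.8-fold. Between replicates 1 and 3 the median ratio was 13.4-fold, and it ran from 0.463-fold for espn and 1.43-fold for mia to 22.4-fold for agr2. Fabp2, krt92, enpep and chs1 had smaller steps between replicates 1 and 3 than most, at 3.33-, 2.56-, 4.36- and 5.39-fold. Ranked over the 27 gene IDs, levels in replicates 1 and 2 had a Spearman rho of 0.95 and in replicates 1 and 3 of 0.96, as a description of libraries that share their tissue and their gene lengths.

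**Figure D3:**
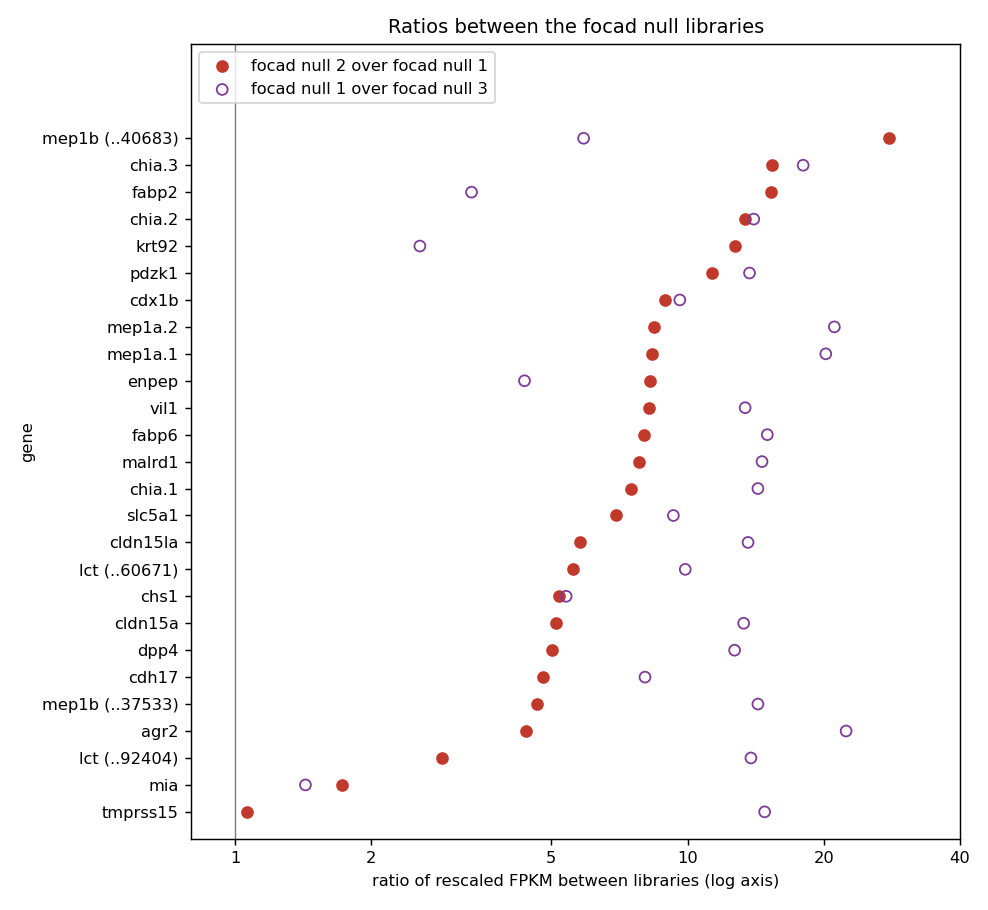
Ratios of rescaled FPKM between focad null libraries for 26 gene IDs (espn left out), on a log axis; filled points give replicate 2 over replicate 1 and open points replicate 1 over replicate 3. The filled points run from 1.06 for tmprss15 to 27.8 for a mep1b gene, and mia is near the bottom for both ratios.

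Intestinal transcripts also varied within wild type. Replicate 3 was the highest wild-type library for 22 of 27 gene IDs, a count without a share over all genes. The summed levels of replicates 2 and 3 were nonetheless close. Krt92, mia and cdh17 made up much of these sums. Without them, the members summed to 9.52, 15.5 and 33.2 FPKM in wild-type replicates 1 to 3. The chitinases, the mep1b gene ENSDARG00000037533 (2, 1 and 115 reads in replicates 1 to 3), pdzk1 (2, 1 and 27 reads) and tmprss15 (1, 0 and 35 reads) were among those with a marked step up to replicate 3. Over the 27 gene IDs, the levels of wild-type replicate 3 and focad null replicate 1 had a Spearman rho of 0.89, against 0.78 and 0.60 for wild-type replicates 1 and 2. Expressed as a percentage of the library labelled focad null replicate 2, the median member stood at 12.8% in focad null replicate 1 and 1.47% in focad null replicate 3. It stood at 0.006%, 0.077% and 0.015% in the pdia6 null libraries and at 0.175%, 0.40% and 0.81% in wild type.

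For focad null against wild type, no member passed the test although all 25 members tested had higher group means. The test was limma on log2(FPKM + 1), fitted to all 9 libraries over the 13290 genes that averaged 0.5 FPKM or more, adjusted by Benjamini-Hochberg with calls below 0.05. A log2 difference on this scale understates the change of low genes. Of the members, 25 passed the filter on low values, and 14 of these had a mean below 0.5 FPKM over the 6 pdia6 null and wild-type libraries, so their focad null levels brought them over the filter. By limma, 0 of 25 were called, where 0.625% of all genes tested were called higher, 0.933% lower and 1.56% in either direction. At an unadjusted limma p below 0.05 stood 18, but the share of all genes at that p was not taken, so this count has no baseline. Limma voom on recovered reads called 0. The median log2 difference of the 25 was 2.93, against 0.01 over all genes tested. The libraries did not overlap, with focad null higher, for 17 of the 25 members tested, where 10.4% of all genes tested did so. Over all 27 gene IDs the count was 18. With focad null lower it was 0, where 9.64% of all genes tested did so. For the 14 that came over the filter through focad null, the filter favoured the higher position. The shares of all genes are no like baseline for them.

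The 6 members with the lowest p were fabp2, chia.3, chs1, chia.1, chia.2 and tmprss15. Fabp2 averaged 1316 ± 2014 FPKM in focad null and 4.46 ± 1.74 FPKM in wild type (SD, n = 3 each), a log2 difference of 6.24 ± 1.24 (SE), with a limma adjusted p of 0.0504. Chs1 averaged 119 ± 150 FPKM in focad null and 2.40 ± 0.24 FPKM in wild type, a log2 difference of 4.07 ± 0.94 with a limma adjusted p of 0.0860. The SD of focad null exceeded its mean for both genes. The log2 differences of chia.3, chia.1, chia.2 and tmprss15 were 7.76 ± 1.75, 6.22 ± 1.45, 5.75 ± 1.51 and 2.05 ± 0.57, with limma adjusted p from 0.0814 to 0.154. All 6 reached an exact two-sided permutation p of 0.1, the smallest that 3 libraries against 3 allow.

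The calls changed with the libraries kept. Without focad null replicate 3, limma called 17 of 25 members higher, where 2.77% of all genes were. Without the library labelled focad null replicate 2 it called fabp2 alone (log2 difference 4.64, adjusted p = 0.0167), where 0.715% of all genes were called higher. Fabp2 was again the single call when the library labelled pdia6 null replicate 1 was left out too (limma adjusted p = 0.0134), where 0.662% were. Without wild-type replicate 1 the single call was mia, with a log2 difference of 3.85 (limma adjusted p = 0.0159), where 0.459% were. In all these fits the filter was that of the 9 libraries. Of the 25 members, 14 came over it through their focad null levels. The filter favoured the higher direction, so the shares of all genes are no like baseline for them.

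**Figure D4:**
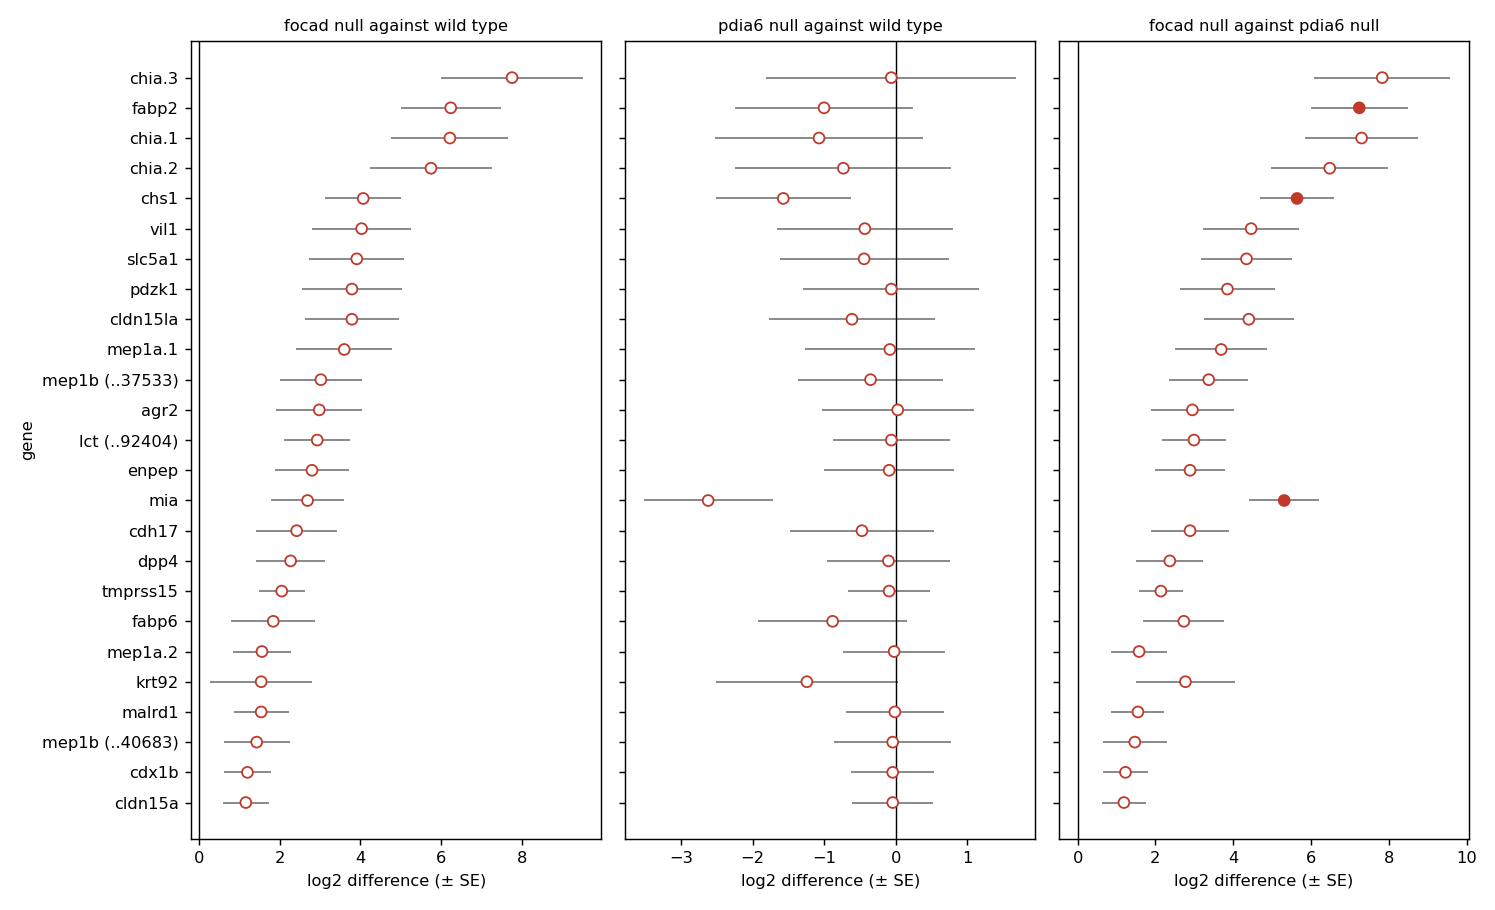
Log2 differences (points) with their SE (bars) for the 25 members tested, on the log2(FPKM + 1) scale from limma, in the 3 comparisons; filled points passed the adjusted threshold. All differences are above 0 for focad null against wild type and against pdia6 null, and filled points appear only for fabp2, chs1 and mia in the panel of focad null against pdia6 null.

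For pdia6 null against wild type, no member passed the test. Limma called 0 of 25 lower and 0 higher, where 0.707% and 0.519% of all genes tested were called (1.23% in either direction). Limma voom on recovered reads called 0. At an unadjusted limma p below 0.05 stood 1 member, again without a share over all genes. The group mean of the pdia6 null libraries was lower for 24 of 25 members, with a median log2 difference of -0.10 against -0.01 over all genes tested. Many of these differences were small on the log2(FPKM + 1) scale, such as -0.01 for malrd1, -0.02 for mep1a.2 and -0.04 for cdx1b. That scale understates the change of low genes. These 3 had 3, 0 and 2 reads in pdia6 null, against 13, 5 and 21 in wild type. The share of all genes in this direction was not taken. Mia had 0 reads in pdia6 null and 755 in wild type, which made it at least 265-fold lower, taking 3 reads in the group as the floor. Of these reads 667 were in wild-type replicate 1, and without that library the bound was 46.0-fold. Its log2 difference was -2.62 ± 0.90 (SE; limma adjusted p = 0.273). Chs1 averaged 0.146 ± 0.042 FPKM in pdia6 null and 2.40 ± 0.24 FPKM in wild type (SD, n = 3 each), a log2 difference of -1.57 ± 0.94 with a limma adjusted p of 0.564. The fit takes its spread from all 9 libraries, and the 3 focad null libraries differed widely for chs1. Fitted to the 6 libraries compared, the log2 difference of chs1 was again -1.57, with an SE of 0.13 and a limma adjusted p of 0.00592, where 0.677% of all genes were called lower. The remaining members with a low p (krt92, fabp6, fabp2 and chia.1) had log2 differences from -1.24 to -0.88 and limma adjusted p from 0.777 to 0.848. The libraries did not overlap, with pdia6 null lower, for 6 of the 25 members tested, where 11.0% of all genes tested did so. Over all 27 gene IDs the count was also 6. With pdia6 null higher it was 0, where 9.65% of all genes tested did so. These 6 were mia, chs1, cldn15la, fabp6, cdx1b and the lct gene ENSDARG00000092404. Few reads stood behind the last 2, with 2 and 0 in pdia6 null against 21 and 38 in wild type. Of the 25 members, 14 had a mean below 0.5 FPKM over these 6 libraries and came over the filter through focad null. The shares of all genes are no like baseline for them.

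Between the 2 null groups, 3 members were higher in focad null. Limma called chs1, mia and fabp2 among 25, where 0.609% of all genes tested were called higher (1.2% in either direction). At an unadjusted limma p below 0.05 stood 20 members, a count without a share over all genes. Chs1 averaged 119 ± 150 FPKM in focad null and 0.146 ± 0.042 FPKM in pdia6 null (SD, n = 3 each), a log2 difference of 5.64 ± 0.94 (SE; limma adjusted p = 0.0316). Mia averaged 41.3 ± 18.98 FPKM in focad null and had no read in pdia6 null, with a log2 difference of 5.31 ± 0.90 (limma adjusted p = 0.0342), and was at least 977-fold higher over the floor. Fabp2 averaged 1316 ± 2014 FPKM in focad null and 2.00 ± 1.64 FPKM in pdia6 null, a log2 difference of 7.24 ± 1.24 (limma adjusted p = 0.0355). Chia.1, chia.3 and chia.2 followed with log2 differences of 7.30 ± 1.45, 7.83 ± 1.75 and 6.48 ± 1.51 and limma adjusted p from 0.0588 to 0.0945. Both comparisons with focad null share its libraries, so they are not separate evidence. The libraries did not overlap, with focad null higher, for 22 of the 25 members tested (23 of all 27 gene IDs), where 13.2% of all genes tested did so. Of these 25, 14 had a mean below 0.5 FPKM over the 6 pdia6 null and wild-type libraries. Their focad null levels brought them over the filter, which favoured this direction, so the share of all genes is no like baseline for them.

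These calls lay close to the threshold. Without focad null replicate 3, limma called 19 members, where 3.96% of all genes were called higher. Without focad null replicate 1, any pdia6 null library or wild-type replicate 2, it called 0, while the log2 differences of fabp2, chs1 and mia stayed at 6.69 to 7.62, 5.61 to 5.66 and 5.31 to 5.35. Without wild-type replicate 1 or 3 it called mia alone, where 0.534% and 0.451% of all genes were called higher. Without the library labelled focad null replicate 2, chs1 and fabp2 passed (log2 differences 4.47 and 5.64, adjusted p = 0.0121 and 0.01), where 0.594% of all genes were called higher. Both also passed when the library labelled pdia6 null replicate 1 was left out with it (4.44 and 5.09, limma adjusted p = 0.0448 and 0.0176), where 0.429% were. Fitted to the 6 libraries compared, mia alone passed (limma adjusted p = 0.00276), where 66 of all genes tested were called higher. Chs1 and fabp2 did not pass in that fit (limma adjusted p = 0.0912 and 0.0945). Limma voom on recovered reads called 0. For the 14 members that came over the filter through their focad null levels, the filter favoured the higher direction here too. The shares of all genes are no like baseline for them.

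Other genes of the gut were taken from further lists. Of the list of other absorptive enterocyte genes, 26 of 35 symbols matched and 22 were tested. None was called by limma in any of the 3 comparisons, and the medians were 1.61 for focad null against wild type, -0.12 for pdia6 null against wild type and 0.91 for focad null against pdia6 null. Lgals2b, a galectin, stood at 569, 5811 and 76.4 FPKM in the focad null libraries, against 104, 144.5 and 105 FPKM in the pdia6 null libraries and 74.5, 118 and 189 FPKM in wild type. It was high in 2 focad null libraries, while the lowest of them lay within the wild-type range. Apoa4b.1, an apolipoprotein that fish liver makes too, stood at 1250, 780 and 1094 FPKM in the focad null libraries, against 325, 2155 and 764 FPKM in the pdia6 null libraries and 600.5, 933 and 94.2 FPKM in wild type, with overlap. The library labelled focad null replicate 2 stood above the 6 libraries of the other groups for 15 of 22 genes of this list, and focad null replicates 1 and 3 for 12 and 7. Among all genes tested, 28.0%, 18.2% and 14.5% held this position for replicates 2, 1 and 3. Wild-type replicates 1 and 3 held it for 3 and 4 of the 22 genes (12.9% and 14.9% of all genes tested). Pdia6 null replicate 2 held it for 1 (15.1%). How many of the 22 passed the filter only through their focad null levels was not counted.

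Hormone genes of enteroendocrine cells had a median log2 difference of 1.94 for focad null against wild type over 4 of 9 gene IDs tested, with none called. Mlnl, a motilin-like hormone, stood at 11.4, 47.3 and 2.92 FPKM in the focad null libraries, against 1.17, 2.38 and 0.72 FPKM in the pdia6 null libraries and 1.99, 2.23 and 1.72 FPKM in wild type. Ghrl, the appetite hormone ghrelin, was close between replicates 1 and 2, at 18.03, 16.2 and 2.203 FPKM in the focad null libraries, against 1.85 to 4.12 in the pdia6 null libraries and 0.46 to 1.71 in wild type. Hormone genes thus followed the members in part. The lists for goblet cells and for lysosome-rich enterocytes, which take up protein, had 2 and 3 genes tested, none called, and medians of 0.43 and 0.15. Foxa3, a transcription factor, overlapped between all groups, at 7.19 to 49.1 FPKM over the 9 libraries. Galnt6, which starts sugar chains on mucins, stood at 1.05, 5.60 and 0.21 FPKM in the focad null libraries, 0.13 to 0.22 in the pdia6 null libraries and 0.072 to 0.17 in wild type. Lgmn, a lysosomal protease, stood at 32.4 to 33.8 FPKM in the focad null libraries, 13.3 to 20.5 in the pdia6 null libraries and 23.9 to 40.4 in wild type, and the endocytic adaptor dab2 overlapped at 4.92 to 33.8 FPKM over all libraries. Among 11 intestinal transcription factors, most of them shared with liver, none was called and the median was 0.49 for focad null against wild type. Hnf4a stood at 70.0, 40.1 and 53.6 FPKM in the focad null libraries, 25.3 to 63.8 in the pdia6 null libraries and 32.1 to 93.2 in wild type, and gata6 likewise overlapped, at 10.4 to 28.1 FPKM over all libraries. In the list of gut muscle and nerve, the 2 genes with the symbol tagln, a smooth muscle protein, stood at 25.2, 73.4 and 9.04 FPKM and at 12.4, 121 and 1.38 FPKM in the focad null libraries. They stayed at 6.11 to 8.75 and 1.25 to 3.23 FPKM in the pdia6 null libraries and at 11.8 to 13.3 and 2.57 to 4.68 FPKM in wild type. Focad null replicate 3 was below all wild-type libraries for both.

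Several gene IDs carry a human symbol that 1 of the unmatched names resembles, without showing which zebrafish copy they are. The slc6a19 gene ENSDARG00000018621, of a family of neutral amino acid transporters, stood at 13.2, 83.8 and 0.96 FPKM in the focad null libraries, against at most 0.0050 FPKM in the pdia6 null libraries and 0.022, 0 and 0.24 FPKM in wild type. The slc15a1 gene ENSDARG00000044528, for a peptide transporter, stood at 16.9, 85.6 and 1.26 FPKM in the focad null libraries, against at most 0.10 in the pdia6 null libraries and 0, 0.028 and 0.38 in wild type. The pyy gene, for a gut hormone, stood at 6.22, 25.8 and 0.41 FPKM in the focad null libraries, against 0, 0.20 and 0 in the pdia6 null libraries and 0.17, 0 and 0.37 in wild type. These 3 had the order of the members in the focad null libraries, as did the other slc15a1 gene, the other 2 slc6a19 genes and the anpep gene ENSDARG00000103878. The slc6a19 gene ENSDARG00000056719 overlapped between groups, at 2.297, 5.64 and 0.31 FPKM in the focad null libraries, against 1.03, 2.88 and 0.016 in the pdia6 null libraries and 0.15 to 0.77 in wild type. The anpep gene ENSDARG00000097285 was lowest in the library labelled focad null replicate 2, at 1.83 FPKM, against 2.68 to 3.57 in the other focad null libraries, 3.82 to 3.98 in the pdia6 null libraries and 2.32 to 3.29 in wild type. The rbp2 genes, for retinol carriers, and slc26a3, for a chloride exchanger, were present in all livers, with slc26a3 at 33.3 to 57.5 FPKM in the focad null libraries, 19.02 to 51.2 in the pdia6 null libraries and 12.8 to 51.9 in wild type. Slc26a3, at 53.6, 57.5 and 33.3 FPKM in focad null replicates 1 to 3, also had the order of the members. So did the rbp2 gene ENSDARG00000070038, at 1996, 7005 and 1363 FPKM there. That rbp2 gene stood at 1284 to 3609 FPKM in the pdia6 null libraries and 504 to 1102 in wild type. The other rbp2 gene, ENSDARG00000093774, did not have this order, at 533, 323.5 and 494 FPKM in focad null replicates 1 to 3. It stood at 443 to 786 FPKM in the pdia6 null libraries and 274.5 to 689 in wild type. None of the 12 gene IDs with such a symbol was called by limma. The anpep gene ENSDARG00000036809, at most 0.014 FPKM in any library, was not tested.

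Markers of other organs were measured in the same libraries. Of the exocrine pancreas list, 17 gene IDs of 15 matched symbols were all read in each group. Their summed level was 4982, 1043 and 2196 FPKM in replicates 1 to 3 of focad null, against 444, 1047 and 516 FPKM in the pdia6 null libraries and 385, 1322 and 498 FPKM in wild type. The pancreatic order of the focad null libraries (1, 3, 2 from high to low) was therefore not that of the intestinal members (2, 1, 3). Spink4, a trypsin inhibitor gene on this list, was the 1 called, at 63.1, 52.9 and 17.9 FPKM in the focad null libraries, 7.69 to 13.8 in the pdia6 null libraries and 4.98 to 8.78 in wild type, with a log2 difference of 2.41 ± 0.46 for focad null against wild type (limma adjusted p = 0.0448). That call held in 6 of 19 other settings, with adjusted p from 0.00433 to 0.166, and was lost with limma voom (0.109) and in 8 of the 9 fits that left out 1 library. The 9 endocrine pancreas gene IDs summed to 211, 166 and 8.24 FPKM in the focad null libraries, 4.04 to 9.96 in the pdia6 null libraries and 0.41 to 3.11 in wild type, with pcsk1 at 0 in focad null, pcsk2 at 0 in pdia6 null, and isl1 and mnx1 at 0 in wild type. Insulin (ins) stood at 199, 147.5 and 7.33 FPKM in the focad null libraries, against 3.72 to 9.02 in the pdia6 null libraries and 0.16 to 2.61 in wild type. The glucagon gene gcga stood at 5.66, 9.34 and 0.19 FPKM in the focad null libraries, 0.10 to 0.33 in the pdia6 null libraries and 0.11 to 0.21 in wild type. Islet and intestinal transcripts were thus both high in focad null replicate 1 and in the library labelled focad null replicate 2. The skeletal muscle list (4 gene IDs) summed to 5.27, 22.8 and 0.28 FPKM in the focad null libraries, 0.020 to 0.15 in the pdia6 null libraries and at most 0.11 in wild type, most of it the actin gene actc1b and the creatine kinase gene ckma. The 7 immune cell gene IDs summed to 218, 1399 and 102 FPKM in the focad null libraries, 112 to 137 in the pdia6 null libraries and 111 to 229 in wild type, most of it the antigen presentation genes cd74a and cd74b, with lyz at 0 throughout. The part of these markers in the differences of the intestinal members was not tested.

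**Figure D5:**
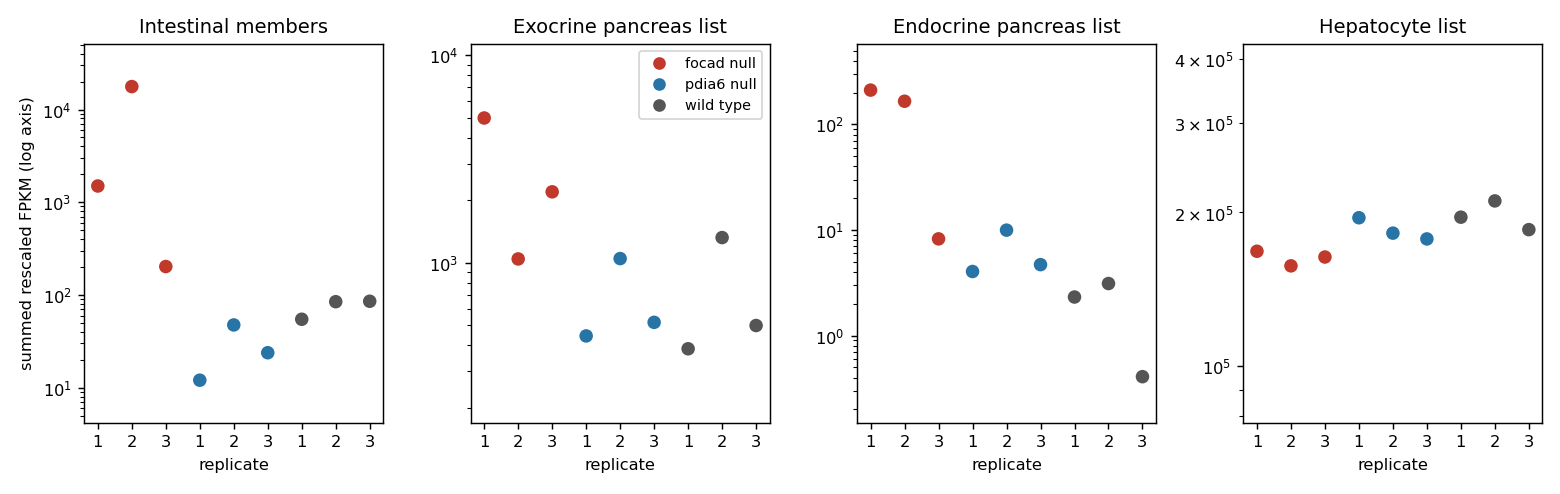
Summed rescaled FPKM of the intestinal members and of the exocrine pancreas, endocrine pancreas and hepatocyte lists in each library (log axes with their own ranges), with replicates 1 to 3 of focad null, pdia6 null and wild type from left to right. The intestinal sum peaks at 17670 in the library labelled focad null replicate 2, and the exocrine sum at 4982 in focad null replicate 1.

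The skeletal muscle and immune sums had the order of the intestinal members in the focad null libraries (2, 1, 3 from high to low). The sums of the lists that follow did not. The 6 biliary gene IDs summed to 1356 to 1541 FPKM in the focad null libraries, 1288 to 2136 in the pdia6 null libraries and 1934 to 3663 in wild type, and none was called. Krt18a.1 and krt8, keratins of bile ducts, had log2 differences of -1.64 and -0.96 for focad null against wild type (limma adjusted p = 0.0656 and 0.267). They had the highest means of the list. Of its 5 genes tested, 2 had a positive difference in that comparison, and the median difference was -0.59. The median gene ID stood at 167 to 227 FPKM in the focad null libraries, 142 to 145 in the pdia6 null libraries and 109 to 186 in wild type. Kidney tubule genes summed to 44.7 to 120 FPKM in the focad null libraries, 41.4 to 171 in the pdia6 null libraries and 74.9 to 185 in wild type, nearly all of it slc22a2, a transporter of organic cations. The ovary list stayed at 0.30 to 0.62 FPKM in the focad null libraries, 0.11 to 5.66 in the pdia6 null libraries and 0.10 to 0.77 in wild type, with the germ cell gene ddx4 at 5.15 FPKM in pdia6 null replicate 2. The erythrocyte list (3 gene IDs) summed to 73.9, 44.0 and 114 FPKM in the focad null libraries, 197 to 578.5 in the pdia6 null libraries and 126 to 216 in wild type. Its other 2 gene IDs were lower in each focad null library than in any of wild type, and neither was called. Against that direction, the globin hbaa2, at a low level, was called higher, at 1.83, 0.98 and 1.25 FPKM in the focad null libraries and 0.038 to 0.26 in wild type, with a log2 difference of 1.05 ± 0.19 (limma adjusted p = 0.0340). Outside focad null its highest level was 0.37 FPKM, in pdia6 null replicate 2. Its focad null levels thus brought hbaa2 over the filter of 0.5 FPKM, which favoured this direction. The hbaa2 call held in 8 of 18 other settings, with limma adjusted p from 0.0223 to 0.17, and was lost with limma voom (0.122). It held in 3 of the 9 fits that left out 1 library. The adipose list summed to 428 to 693 FPKM in the focad null libraries, 127 to 370 in the pdia6 null libraries and 310 to 880 in wild type, nearly all of it lpl, lipoprotein lipase, and none was called.

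Outside all lists, the genes most like the mean of the members were sought over the 9 libraries, as a description. The 15 with the highest Pearson r, from 0.992 to 0.999, were fxyd12, epdl2, plscr3a, slc34a2, nmrk2, casp6b.2, ace, ca4b, muc13b, smim24, slc5a8l, ociad2, nr0b2, ifit15 and sox4. Fxyd12, of a family that tunes the sodium pump, stood at 29.5, 303 and 2.23 FPKM in the focad null libraries, against 0, 0.10 and 0.038 FPKM in the pdia6 null libraries and 0.43, 0.59 and 1.28 FPKM in wild type. Muc13b, a membrane mucin, stood at 27.5, 145 and 2.34 FPKM in the focad null libraries, against 0.52, 0.42 and 0.084 FPKM in the pdia6 null libraries and 0.46, 0.39 and 1.29 FPKM in wild type. Slc34a2, a phosphate transporter, stood at 24.4, 185.5 and 1.90 FPKM in the focad null libraries and at 0.16 to 0.63 FPKM in the others. Ace, a peptidase, stood at 11.3, 70.8 and 0.80 FPKM in the focad null libraries and at 0.019 to 0.47 FPKM in the others. Each of these 4 was highest in the library labelled focad null replicate 2. Their choice by likeness to the members over these same libraries largely fixed that, so it is no separate evidence.

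In focad null against wild type, the authors' deposited table called 1 of the 27 gene IDs, tmprss15, and 1.15% of all genes with an adjusted p. For tmprss15 the authors' deposited table gave group means of 760 and 12.5 scaled reads in focad null and wild type, and an adjusted p of 0.0347. For pdia6 null against wild type, the authors' deposited table also called 1, chs1, with 1.69% of all genes called. Its group means were 10.8 scaled reads in pdia6 null and 177 in wild type, a log2 ratio of -4.03 with an adjusted p of 6.32e-07 in the authors' deposited table.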

How the data were processed

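Per the labels' protocols, total RNA came from livers frozen in liquid nitrogen. Tools named in the submitters' processing notes, without their roles, are HTSeq 0.6.1, TopHat2 2.0.12 and Bowtie2 2.2.3, with the build danRer11. Annotation, strand setting and the authors' test: not given in the sources used here.

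Per gene and library, the authors deposited FPKM. Their comparison tables hold, per the file headers, a mean read count per group, a signal value scaled by the authors in each table, and a p-value with its adjusted value. Their log2 ratio was recomputed from these means.

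FPKM columns were rescaled by median ratios to the geometric mean, using the 7660 genes that reached 1 FPKM in every library. Symbols came from the name table given with the data (29201 gene IDs). Values were log2(FPKM + 1), with a mean of at least 0.5 FPKM required. R 4.3.3 and limma 3.58.1 (lmFit, then robust eBayes with a trend) gave 3 group means from 9 libraries, with 6 residual degrees of freedom, tests two-sided. Tables used pandas 2.3.3 in Python 3.11.15, exact tests scipy 1.17.1 and figures matplotlib 3.10.9. Steps in the FPKM values gave whole reads. Of 162710 values below 1000 reads, 99.97% were whole within 0.05, and these reads gave the depths, 46.1 to 54.5 M a library, and the voom fit. Floors of 3 reads cover counting error only. The fit was tested on simulated data.

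The members and lists were chosen with earlier results of these data known. Named with a test are the members called and the 6 with the lowest p in each comparison, and from each other list the genes called or else the 2 with the highest mean. Alternatives were other pseudocounts, filters and scaling, fits of 6 libraries, a plain fit, a replicate block, voom, and libraries left out.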

Additional observations from a re-analysis of the deposited data

How the results depend on the processing

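The median log2 difference of the members kept its sign under every alternative run, in each of the 3 comparisons. Members called for focad null against pdia6 null (3) became 7 and 9 with pseudocounts of 0.1 and 0.01, 1 in the fit of the 6 libraries compared, 0 without a filter, 0 with voom and 1 with the replicate block. All genes called higher in that comparison were 81 in the main fit, and 145 and 175 with these pseudocounts. They were 66 in the fit of 6 libraries, 80 without a filter, 31 with voom and 43 with the replicate block. For focad null against wild type, members called (0) became 1 without rescaling, where 89 genes were called higher. They also became 1 without the libraries labelled focad null replicate 2 and pdia6 null replicate 1, where 88 were. Both times the member was fabp2. For pdia6 null against wild type, members called (0) became 1 in the fit of 6 libraries (chs1), where 90 genes were called lower. They became 1 with a pseudocount of 0.01 (mia), where 88 were. Leaving out 1 library at a time gave 0 to 19, 0 to 17 and 0 members called in these comparisons. Without focad null replicate 3, 526 and 368 of all genes were called higher beside the 19 and 17 members. Medians became 5.51 (pseudocount 0.1), 7.78 (0.01) and 8.35 (voom) for focad null against pdia6 null, 4.79 (0.01) and 4.80 (voom) for focad null against wild type, and -1.76 (voom) for pdia6 null against wild type. With single libraries left out they ran from 2.08 to 4.34, from 1.85 to 4.05 and from -0.43 to -0.03. The cause of these changes was not tested.

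Genes called in all (160 for focad null against pdia6 null, 207 for focad null against wild type and 163 for pdia6 null against wild type) became 75, 96 and 77 with voom. With the replicate block they became 82, 121 and 82, with a mean of at least 2 FPKM 98 and 91 for the comparisons with wild type, and for focad null against pdia6 null 254 and 286 with pseudocounts of 0.1 and 0.01 and 104 without the same pair of libraries. Leaving out 1 library gave 61 to 642, 90 to 485 and 78 to 239. Same-numbered libraries did not deviate together throughout (r of deviations from group means from -0.194 to 0.286), so the numbers were not taken as pairs, and not every library correlated best with its own number. At these depths, a count of 0 over a group allows up to 3 reads.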
